A study of Mus musculus with 8 samples.

Results

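The myeloid and progenitor genes described here are 10 genes of blood cells outside the mature T lineage, out of 21532 protein-coding genes of the mouse annotation whose start and strand were known. The progenitor genes were *Spi1*, *Lyl1*, *Tal1*, *Lmo2* and *Gata2*, and the myeloid genes were *Cebpa*, *Cebpb*, *Csf1r*, *Mpo* and *Itgam*. They were chosen by name for what they are known to do, and their histone H3 lysine 27 acetylation (H3K27ac) was read from peak lists in the gene body with 20 kb to either side. A start peak is a called peak with at least 1 base within 1 kb of the gene start. Positions are counted in bases or kb from the gene start, negative upstream, on GRCm38.

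The series holds 8 libraries of mouse cells, 2 of them H3K27ac ChIP-seq and 6 of them 4C-seq, and only the ChIP-seq peak lists were used here. Both ChIP-seq libraries were made from P5424, a mouse T cell precursor line grown in RPMI medium with serum. The wt library came from unedited cells. The ΔIkE120 library came from a clone, raised by limiting dilution after CRISPR/Cas9 editing, in which both copies of IkE120 were deleted. IkE120 is a distal upstream enhancer of *Ikzf1*, the gene of the lymphoid transcription factor Ikaros. With 1 library per genotype there is no replicate error and no test, and the deletion and differences between clones cannot be told apart. Whether the ChIP-seq cells had been stimulated with PMA and ionomycin is not given in the sources used here.

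T lineage marker genes were acetylated at the start in both lists. Of 20 T lineage marker genes, 19 had a start peak in wt cells and 18 in ΔIkE120 cells, while 44.5% of all genes had one in wt cells and 43.8% in ΔIkE120 cells. Peaks covered a median of 10.1% of the marker windows in wt cells and 9.45% in ΔIkE120 cells, against 1.79% and 1.60% over all genes. The marker windows with the most covered bases in wt cells were those of *Lef1*, with 9278 bases, *Cd4*, with 8975, and *Bcl11b*, with 8413. *Il7r*, the interleukin receptor gene of early lymphocytes, had no peak in its window in either list. *Cd2*, named after its values were seen, was the marker with a start peak in wt cells alone.

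H3K27ac marks active promoters and enhancers, and broad or clustered peaks of it are typical of genes that define a cell type. The 5 progenitor genes code for transcriptional regulators of blood stem cells and early progenitors. Such cells bring them into the thymus, where they are turned down as T cell precursors commit to the lineage, and *Tal1*, *Lyl1* and *Lmo2* are known as oncogenes of T cell leukaemia when they stay active. The myeloid genes span 2 transcription factors (*Cebpa*, *Cebpb*), a growth factor receptor (*Csf1r*), a granule enzyme (*Mpo*) and an integrin (*Itgam*).

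In wt cells 2 of the 10 genes had a start peak, *Spi1* and *Mpo*, and in ΔIkE120 cells 1 had one, *Spi1*. These are 20% and 10% of the members, below the shares over all genes given above. The *Spi1* peak counts at the outer start of its longest gene model, and no peak lay at the distances of its later starts, as described below. In wt cells 6 of the 10 windows held at least 1 peak, 24 peaks in all, which covered 15840 of 585 kb, or 2.71%. In ΔIkE120 cells 5 windows held 16 peaks, which covered 11421 bases, or 1.95%. The median share of a member window was 2.07% in wt cells and 0.728% in ΔIkE120 cells, against 1.79% and 1.60% over all genes. In wt cells *Lyl1*, *Itgam*, *Cebpb* and *Spi1* had a share at or above that of 95.3%, 81.0%, 78.1% and 75.3% of all genes. *Mpo* and *Tal1* were at 56.4% and 50.6%. In ΔIkE120 cells the 6 were at 96.6%, 73.9%, 51.5%, 69.5%, 34.7% and 48.2%, in that order. The windows of *Lmo2*, *Gata2*, *Cebpa* and *Csf1r* held no peak in either list, which was also the case for 32.3% of all genes. Most member peaks lay away from the starts: in wt cells 2 were at a start, 5 elsewhere in the gene, 10 upstream and 7 downstream. A peak list does not tell a mark in some of the cells from a weaker mark in all of them.

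**Figure D1:**
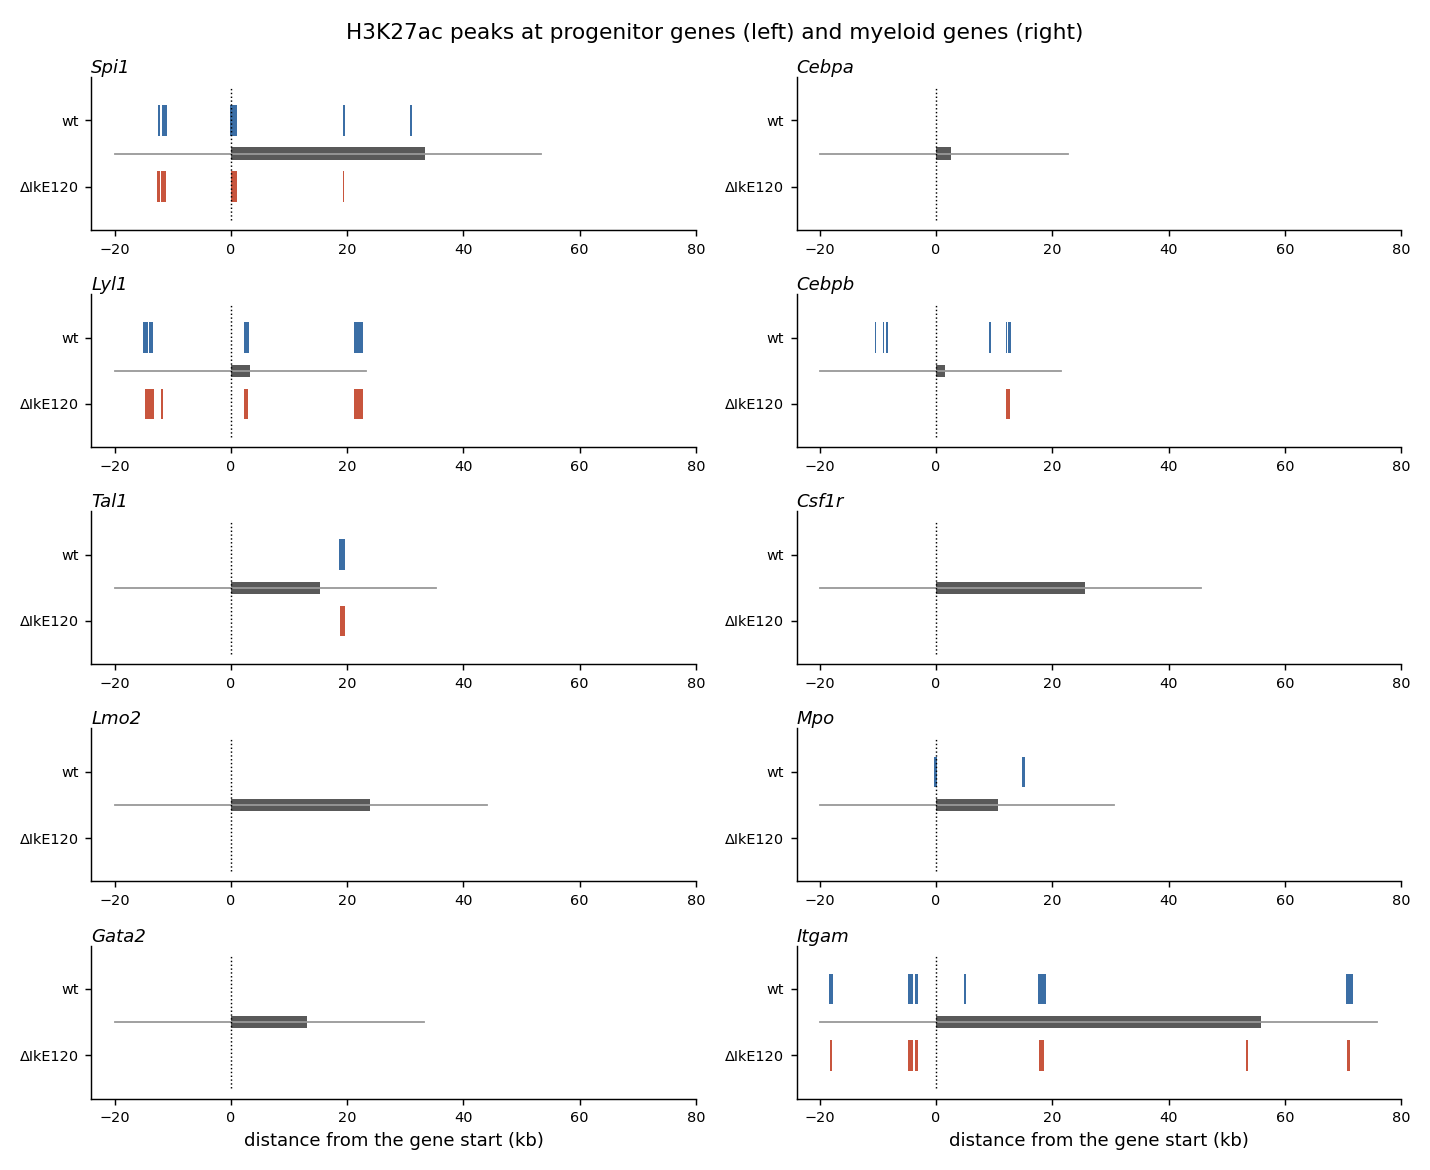
H3K27ac peaks in the windows of the 10 genes, drawn to scale against the distance from the gene start in kb. The dark bar is the gene body, the thin line is the window, blue boxes are peaks of the wt library and red boxes are peaks of the ΔIkE120 library. *Spi1* has a peak at its outer start in both lists, *Mpo* has a start peak in the wt list, and 4 windows hold no peak.

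*Spi1* codes for PU.1, the Ets family factor that drives myeloid and early lymphoid development and is silenced as T cells commit. The gene lies at chr2:91082374-91115759. Its start peak spanned chr2:91082291-91083481 in wt cells, from -83 to 1107, with 3.96 fold enrichment and a −log10 q of 9.23 as the authors' caller gave them. In ΔIkE120 cells it spanned chr2:91082439-91083365, from 65 to 991, with 3.91 fold enrichment and a −log10 q of 8.71. The start peak was therefore called at nearly the same place in both lists, and its −log10 q exceeded the list median, which was 4.12 in wt cells and 4.47 in ΔIkE120 cells.

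The start used for *Spi1* is that of its longest gene model. GENCODE M1, on the older build NCBIM37, gives the gene (as *Sfpi1*) nearly the same length, 33367 against 33386 bases in RefSeq. Its transcripts begin 0, 18, 13706 and 14390 bases from the gene start in that annotation. Beyond the start peak, the next peak of *Spi1* in either list began 19.3 kb into the gene, so at those distances no peak lay within 1 kb of the later starts. An upstream regulatory element that acts as an enhancer of *Spi1* in blood cells is well known, and whether the peak at the outer start marks that element or a promoter was not tested.

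The remaining *Spi1* peaks were smaller. Inside the gene a peak of 308 bases in wt cells (19.3 to 19.6 kb) and of 277 bases in ΔIkE120 cells (19.3 to 19.5 kb) was shared. A peak of 265 bases at 30.8 to 31.1 kb, with a −log10 q of 3.63, was in the wt list alone. Upstream, both lists had a pair of peaks between -12.6 and -11.0 kb that lay at the start of *Slc39a13*, a zinc transporter gene transcribed away from *Spi1*, and of the non-coding RNA gene *Gm39874*. In all, peaks covered 3070 bases of the *Spi1* window in wt cells and 2356 in ΔIkE120 cells, a ratio of 0.767.

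*Lyl1* codes for a basic helix-loop-helix factor of progenitors and lies at chr8:84701423-84704716. It had no start peak in either list. A peak lay inside this short gene, toward its end, from 2259 to 3068 in wt cells (fold enrichment 3.97, −log10 q 4.70) and from 2228 to 2921 in ΔIkE120 cells (fold enrichment 4.27, −log10 q 4.84). Its window was the most densely covered of the 10, with 3900 bases or 9.01% in wt cells and 4049 bases or 9.35% in ΔIkE120 cells, and 95.3% and 96.6% of all genes had no larger share. Most of those bases belonged to neighbours. Both wt peaks between -15.1 and -13.4 kb lay within 1 kb of the starts of *Trmt1*, a tRNA methyltransferase gene, and *Nacc1*, and the second of them, chr8:84687287-84688012, had the highest −log10 q of any wt peak in the 10 windows, 29.7. A peak at 21.2 to 22.8 kb covered 1620 bases at the start of the non-coding RNA gene *G430095P16Rik* in wt cells, and 1570 bases in ΔIkE120 cells. A peak of 343 bases at -11.9 kb was in the ΔIkE120 list alone.

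*Tal1*, the gene of a related helix-loop-helix factor that is required for blood formation, lies at chr4:115056426-115071755 and had no start peak. Each list had 1 peak in its window, downstream of the gene. In wt cells it spanned chr4:115075089-115076103, 18.7 to 19.7 kb from the start, with 3.49 fold enrichment and a −log10 q of 4.21. In ΔIkE120 cells it spanned chr4:115075281-115076086, 18.9 to 19.7 kb from the start, with 3.48 fold enrichment and a −log10 q of 3.32. No other gene start lay within 1 kb of it. Peaks covered 1015 bases in wt cells and 806 in ΔIkE120 cells, a ratio of 0.794. Enhancers of *Tal1* that are active in blood stem cells have been described downstream of the gene, and whether this peak marks 1 of them was not tested.

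*Lmo2*, the gene of the adaptor that joins TAL1 or LYL1 to GATA factors, lies at chr2:103957903-103981878. *Gata2*, a zinc finger factor gene needed by blood stem cells, lies at chr6:88193891-88207032. Neither window, of 64.0 and 53.1 kb, held a peak in either list. Of the genes whose products work in 1 complex, *Lyl1* and *Tal1* thus had acetylation in or downstream of the gene, and *Lmo2* and *Gata2* had none that was called.

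Among the myeloid transcription factors, *Cebpa*, the gene of the C/EBP family member that starts the granulocyte and monocyte programme, lies at chr7:35119293-35121928 and had no peak in its window. *Cebpb*, a family member induced by inflammatory signals in many cell types, lies at chr2:167688915-167690432 and had no start peak. Its window held 6 peaks in wt cells, of 215 to 467 bases, 3 between -10.5 and -8.30 kb and 3 between 9.08 and 12.9 kb. Their −log10 q ran from 1.87 to 3.15, all below the median of the wt list. In ΔIkE120 cells 1 peak was called, chr2:167700902-167701608, of 707 bases and with a −log10 q of 2.88, which overlapped both of the last wt peaks. Peaks thus covered 1891 bases in wt cells and 707 in ΔIkE120 cells, a ratio of 0.374. The *Cebpb* ratio was 0 with a flank of 10 kb and 0.605 with a flank of 50 kb.

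*Csf1r* codes for the receptor of macrophage colony-stimulating factor and lies at chr18:61105572-61131139. No peak was called in its window of 65.6 kb in either list.

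*Mpo* codes for myeloperoxidase, the main enzyme of neutrophil granules, and lies at chr11:87793784-87804412. It was the member whose start peak differed between the lists. In wt cells the start peak spanned chr11:87793405-87794030, 626 bases from -379 to 246, with 2.98 fold enrichment. Its −log10 q of 2.08 was among the lower ones, with 17.8% of wt peaks at or below it, so the call is lost when peaks under the median are left out. A second wt peak of 540 bases lay downstream, at 14.8 to 15.3 kb, with a −log10 q of 2.99. In ΔIkE120 cells the *Mpo* window held no peak, against 1166 covered bases in wt cells. Over all genes, 1.1% had a start peak in wt cells alone and 0.492% in ΔIkE120 cells alone.

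*Itgam* codes for CD11b, the integrin subunit of neutrophils and macrophages, and lies at chr7:128062640-128118491. It had no start peak, and 6 peaks in each list. The peak with the highest −log10 q lay inside the gene, at chr7:128080236-128081537 in wt cells (17.6 to 18.9 kb, fold enrichment 4.51, −log10 q 24.6) and at chr7:128080276-128081281 in ΔIkE120 cells (17.6 to 18.6 kb, fold enrichment 5.60, −log10 q 30.0). In both lists it was among the highest peaks, with 97.7% of wt peaks and 98.9% of ΔIkE120 peaks at or below it. A pair of shared peaks lay upstream, between -4.88 and -3.10 kb in wt cells. The outermost shared peaks were at -18.3 kb and, downstream of the gene, at 70.5 to 71.6 kb in wt cells. The downstream peak lay past the start, at 66.9 kb, of a neighbouring gene. That neighbour is in the list of other myeloid genes described below, and its window takes in the same peak. A peak of 410 bases at 4.80 to 5.21 kb (−log10 q 4.26) was in the wt list alone, and one of 282 bases at 53.3 to 53.6 kb (−log10 q 1.93) in the ΔIkE120 list alone. Covered bases came to 4798 in wt cells and 3503 in ΔIkE120 cells, a ratio of 0.730.

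Between the lists, a window was counted as lower or higher when covered bases differed by more than 1.5 fold and at least 1 list covered 500 bases. Of the 6 members that could be compared, *Cebpb* and *Mpo* were lower in ΔIkE120 cells and 0 were higher. *Spi1*, *Lyl1*, *Tal1* and *Itgam* stayed within 1.5 fold. With the same number of peaks taken from each list, *Cebpb* and *Mpo* were again the lower windows, and the ratio over the members was 0.767, against 0.721 with all peaks. All peaks of *Cebpb* and *Mpo* lay under the median −log10 q of their list, so leaving out such peaks empties both windows, and the lower windows are then those of *Tal1*, with a ratio of 0, and *Itgam*, with 0.625. In the gene bodies alone 0 windows were lower: the *Cebpb* gene body holds no peak, and that of *Mpo*, with bases in the wt list alone, falls under the minimum of 500 bases. With a flank of 50 kb the *Mpo* window was no longer lower, at a ratio of 0.869. Over all genes, 10.3% of 13894 such windows were lower and 2.08% were higher, and among the 5433 windows in which the larger list covered at most 2000 bases, as at *Cebpb* and *Mpo*, 15.9% were lower. The ΔIkE120 list was shorter as a whole, with 29902 peaks against 34553 and 0.879 of the covered bases. The median ratio over the 13911 windows with bases in both lists was 0.936, and the quartiles were 0.819 and 1.04.

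As over all peaks, those in the member windows that the lists did not share were mostly low ones. In the member windows 16 of 24 wt peaks (66.7%) and 14 of 16 ΔIkE120 peaks (87.5%) overlapped a peak of the other list by at least 1 base, against 74.4% and 86.4% of all peaks. Of the 8 wt peaks without a counterpart, 7 were below the median −log10 q of the list, where 51.6% of all wt peaks had a counterpart, compared with 97.3% from the median up. The median −log10 q of the 8 was 2.36, and that of the 16 shared wt peaks was 5.15. The depth of the libraries is unknown, and its part in these differences was not tested.

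Progenitor and myeloid genes had nearly the same covered bases in wt cells, 7985 and 7855, in windows that summed to 289 and 296 kb. In ΔIkE120 cells the progenitor windows held 7211 bases and the myeloid windows 4210, ratios to wt cells of 0.903 and 0.536. The progenitor to myeloid ratio of covered bases depended on the setting. In wt cells it was 1.02, and 1.81 with peaks under the median −log10 q left out. In ΔIkE120 cells it was 1.71, but 1.06 with a 10 kb flank and 0.977 with a 50 kb flank. Each group had 1 start peak in wt cells, and in ΔIkE120 cells the progenitor genes had 1 and the myeloid genes 0. The median percent of the window covered was 1.83% in progenitor and 2.3% in myeloid genes in wt cells, and 1.46% and 0% in ΔIkE120 cells. Of the 10 wt peaks of progenitor genes 9 had a counterpart, and of the 14 wt peaks of myeloid genes 7 had one. Over all wt peaks 74.4% had one. Below the list median −log10 q, where 51.6% of all wt peaks had a counterpart, lay 3 of the 10 and 9 of the 14. In ΔIkE120 cells 8 of 9 progenitor peaks and 6 of 7 myeloid peaks had a counterpart, against 86.4% of all peaks. In wt cells 5 of the 10 progenitor peaks, all in the *Spi1* and *Lyl1* windows, and 0 of the 14 myeloid peaks were within 1 kb of the start of another gene, against 32.7% of the peaks in the windows of all genes. In ΔIkE120 cells these were 4 of 9, in the same windows, and 0 of 7, against 35.4%. Without such peaks the progenitor windows held 3589 bases in wt cells and 3047 in ΔIkE120 cells, fewer than the myeloid windows in both lists. With 5 genes in each group these are descriptions of the genes named.

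RefSeq promoter windows of 300 bases, from 250 bases before to 50 bases after a transcript start on GRCm38.p6, were found for 7 of the 10 genes, 9 windows in all with 2 each for *Tal1* and *Gata2*. *Spi1*, *Lmo2* and *Csf1r* had no entry. The comparison of these windows was chosen after the peaks were seen. A window was called CpG-rich when at least 55% of its bases were G or C and its CpG count was at least 0.6 of that expected from its C and G. Of 8709 CpG-rich windows of all genes, 73.1% lay under a peak in wt cells and 73.2% in ΔIkE120 cells, against 20.6% and 19.8% of the other 12553. The members had 5 CpG-rich windows, at *Gata2*, *Cebpa*, *Cebpb* and the second start of *Tal1*, and 0 of them lay under a peak in either list. The *Mpo* window, with 2 CpGs and an observed to expected ratio of 0.0871, lay under a peak in wt cells.

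The promoters of *Gata2*, *Cebpa* and *Cebpb* are shown because they are rich in CpG (in capitals) and lay under no peak. They are at chr6:88193641-88193940, chr7:35119043-35119342 and chr2:167688665-167688964, plus strand, with 32, 29 and 50 CpGs.
*Gata2*: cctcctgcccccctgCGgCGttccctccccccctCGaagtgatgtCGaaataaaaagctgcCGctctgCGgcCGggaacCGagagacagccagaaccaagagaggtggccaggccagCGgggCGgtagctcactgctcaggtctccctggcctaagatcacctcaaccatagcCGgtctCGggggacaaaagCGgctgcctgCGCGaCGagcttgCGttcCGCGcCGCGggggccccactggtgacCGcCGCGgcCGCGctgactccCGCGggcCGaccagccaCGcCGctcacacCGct
*Cebpa*: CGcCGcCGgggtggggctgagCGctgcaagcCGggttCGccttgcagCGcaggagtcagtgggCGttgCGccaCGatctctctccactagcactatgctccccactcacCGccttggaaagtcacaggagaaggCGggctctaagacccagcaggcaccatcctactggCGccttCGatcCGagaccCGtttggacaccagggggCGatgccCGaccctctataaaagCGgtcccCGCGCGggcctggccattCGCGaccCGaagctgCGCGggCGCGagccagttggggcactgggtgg
*Cebpb*: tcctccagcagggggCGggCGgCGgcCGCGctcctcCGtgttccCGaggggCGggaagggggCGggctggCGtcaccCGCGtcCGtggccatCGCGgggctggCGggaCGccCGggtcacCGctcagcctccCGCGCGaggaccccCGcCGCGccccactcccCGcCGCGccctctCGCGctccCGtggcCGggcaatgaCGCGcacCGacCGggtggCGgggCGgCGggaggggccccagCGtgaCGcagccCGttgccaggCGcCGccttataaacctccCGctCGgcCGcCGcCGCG

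The promoter of *Mpo* is shown because its peak was in the wt list alone. It is at chr11:87793534-87793833, plus strand, and lies wholly inside the wt start peak. Capitals mark GAGGAA, a core letter run bound by PU.1 and other Ets factors, searched on both strands.
*Mpo*: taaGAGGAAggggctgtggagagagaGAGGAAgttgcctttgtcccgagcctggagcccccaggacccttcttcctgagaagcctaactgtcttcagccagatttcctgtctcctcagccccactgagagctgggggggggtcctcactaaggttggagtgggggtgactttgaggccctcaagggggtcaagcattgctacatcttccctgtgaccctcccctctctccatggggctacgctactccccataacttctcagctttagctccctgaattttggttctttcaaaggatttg

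The *Mpo* window holds GAGGAA 2 times, both near its upstream end. GAGGAA or its complement was in 4 of the 9 member windows, those of *Lyl1*, *Mpo*, *Itgam* and the first start of *Tal1*, and in 27.4% of 21262 windows of all genes. GATAA, the core of sites bound by GATA factors, was in 1 of the 9, at the first start of *Tal1*, and in 22.5% of all windows. TGGGAA, a core letter run bound by Ikaros, was also found in that *Tal1* window alone, and in 24.5% of all windows. GAGGAA and TGGGAA end in the same letters, but no match of 1 of the 3 motifs can overlap a match of another. A match is a description of the letters and not of binding.

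The lists of related genes set the members among others of the same kind. In their windows, peaks at the starts of other genes were not set apart. Covered bases there may belong to neighbours, also at genes without a start peak such as *Cd68* and *Cd79a*. Of 22 other progenitor genes, 8 (36.4%) had a start peak, the same 8 in both lists, against 44.5% and 43.8% of all genes, and 5 had no peak in the window in either list, as did 32.3% of all genes. Those with a start peak, named after their values were seen, included the stem cell factor receptor gene *Kit*, the transcription factor genes *Runx1*, *Myb*, *Etv6* and *Nfe2*, and the erythroid genes *Klf1*, *Epor* and *Zfpm1*. Within 500 bases of the start, 6 of the 22 in wt cells and 5 in ΔIkE120 cells had a peak. The most covered bases in wt cells were at *Runx1* (14149 bases in wt cells and 11450 in ΔIkE120 cells), *Fli1* (7594 and 8113) and *Etv6* (7382 and 8032). RUNX1 is also needed for T cell development. The median percent covered was 3.31% in wt cells and 3.24% in ΔIkE120 cells, against 1.79% and 1.60% over all genes. Of 16 windows that could be compared, 1 was lower in ΔIkE120 cells, that of *Mecom*, from 603 to 342 bases, and 0 were higher, against 10.3% and 2.08% over all genes.

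Of 29 other myeloid genes, 4 had a start peak, the same 4 in both lists: *Csf2ra*, *Cd14*, *Gfi1* and *Tyrobp*, also named after their values were seen. That is 13.8%, below the share over all genes. With the same number of peaks taken from each list, the start peak of *Cd14* in wt cells (−log10 q 1.34) is left out, and 3 genes in wt cells and 4 in ΔIkE120 cells had one. In 11 of the 29 windows neither list had a peak, as in 32.3% of the windows of all genes. The most covered bases in wt cells were at *Gfi1* (8541 bases in wt cells and 8976 in ΔIkE120 cells), a repressor gene that also acts in lymphoid precursors, *Tyrobp* (4435 and 4550), the gene of a signalling adaptor, and *Cd68* (4359 and 3936), a macrophage marker gene. The median percent covered was 1.37% in wt cells and 0.542% in ΔIkE120 cells, against 1.79% and 1.60% over all genes. Of 17 windows that could be compared, 5 were lower in ΔIkE120 cells and 1 was higher, against 10.3% and 2.08% over all genes and 15.9% lower where the larger list covered at most 2000 bases. They are named after their values were seen. The lower ones included *Irf8*, the gene of a monocyte and dendritic cell factor, from 3412 to 2003 bases. *Elane* and *Prtn3*, neighbouring neutrophil protease genes that share 2 peaks, went from 598 bases to no peak. *Fcgr3* went from 668 to 297 bases and *Ncf1* from 1199 to 604. The window that was higher was that of *S100a9*, with no peak in wt cells and 814 bases in ΔIkE120 cells.

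Of 12 B lineage genes, 5 (41.7%) had a start peak in wt cells and 3 (25%) in ΔIkE120 cells, against 44.5% and 43.8% of all genes. With peaks under the median −log10 q of their list left out, 2 had a start peak in each list, but not the same 2. They were *Blk* and *Rag2* in wt cells and *Rag1* and *Rag2* in ΔIkE120 cells. Within 500 bases of the start, 3 in wt cells and 2 in ΔIkE120 cells had one. The start peaks of *Blk*, a Src family kinase gene (−log10 q 7.27), and *Igll1*, a surrogate light chain gene (−log10 q 2.02), were in the wt list alone, as were those of 1.1% of all genes. The start peaks of *Ebf1*, *Rag1* and *Rag2* were in both. *Rag1* and *Rag2* serve receptor gene rearrangement in T cell precursors too, so their start peaks are not particular to the B lineage. The most covered bases in wt cells were at *Cd79a* (4622 bases in wt cells and 4106 in ΔIkE120 cells), *Blk* (4089 and 1152) and *Rag2* (3752 and 3175). The median percent covered was 5.49% in wt cells and 3.11% in ΔIkE120 cells, against 1.79% and 1.60% over all genes. Of 10 windows that could be compared, 4 were lower in ΔIkE120 cells, *Ebf1*, *Blk*, *Vpreb1* and *Igll1*, and 0 were higher, with the same shares over all genes as above. *Vpreb1* and *Igll1* are neighbours whose windows held the same covered bases, 2572 in wt cells and 1307 in ΔIkE120 cells, so they count the same peaks. Of 19 T lineage marker windows that could be compared, 1 was lower in ΔIkE120 cells, that of *Zap70*, named after its values were seen, from 3849 to 2346 bases, and 0 were higher.

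**Figure D2:**
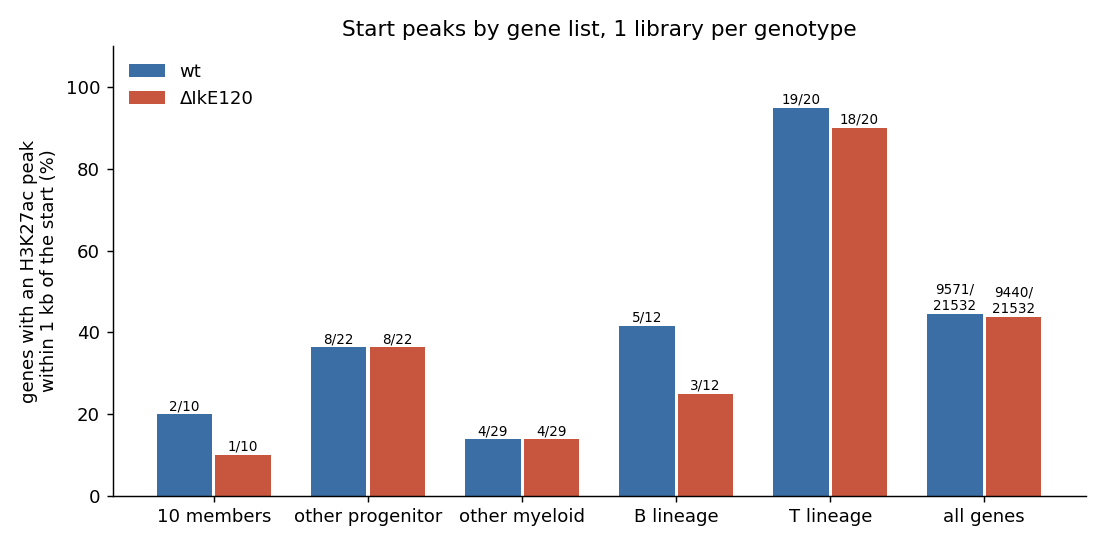
Percent of genes with an H3K27ac peak within 1 kb of the start, for the 10 members, the related lists, the T lineage markers and all genes, in the wt (blue) and ΔIkE120 (red) libraries. Numbers over the bars are genes with a start peak out of genes in the list; T lineage markers reach 19 of 20 and the members 2 of 10 in wt cells.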

How the data were processed

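H3K27ac ChIP-seq peaks of wt and ΔIkE120 P5424 cells were analysed, 1 library each. The submitters' processing notes name Bowtie2 2.3.4.3, Bowtie 1.0.0, MACS2 2.1.1, deepTools 3.2.1 and GRCm38. The peak lists deposited by the authors hold, for each peak, its fold enrichment, −log10 q-value and −log10 p-value. An input sample is described, and the depth is unknown, so these values were ranked within a list only. Genes were taken from RefSeq GRCm38.p6. The strand came from the RefSeq promoter table for 17491 protein-coding genes and from GENCODE M1, by name, for 4041, and 98.4% of the genes had one. Counting was tested on simulated data. Named genes were the members, genes with a start peak in their windows, and in each list those whose start peak differed or that had the 3 largest covered lengths in wt cells, and T lineage markers without a start peak. Genes named for a shared start peak or a lower or higher window were added after their values were seen. The members and lists were chosen with earlier results of these data known, and 1 gene of the list of other myeloid genes, left out after its values were seen for a reason unrelated to them, is not reported here. The alternatives were other peak subsets, distances, flanks and starts. Python 3.11.15 ran pandas 2.3.3 and numpy 2.4.6 for counting and matplotlib 3.10.9 for plots.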

Additional observations from a re-analysis of the deposited data

How the results depend on the processing

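With 1 library per genotype and unknown depth, no value here has an error. Of 82 recomputed values that answer a comparison, 60 stayed within 1.5 fold and 22 moved further. A count that stayed the same can rest on other genes, as it did for the lower windows below. Under each alternative 0 member windows were higher in ΔIkE120 cells. When peaks under their list's median −log10 q were left out, 1 member had a start peak in each list, since *Mpo* was lost in wt cells. In each list 2 B lineage genes then had a start peak, *Blk* and *Rag2* in wt cells and *Rag1* and *Rag2* in ΔIkE120 cells. Of all 21532 genes, 8878 in wt and 8698 in ΔIkE120 cells then had a start peak. Covered bases of the members were 10347 in wt and 8083 in ΔIkE120 cells, and the progenitor to myeloid ratio was 1.81 in wt and 2.52 in ΔIkE120 cells. This filter empties the *Cebpb* and *Mpo* windows, and it keeps the *Tal1* peak in the wt list (−log10 q 4.21) but not in the ΔIkE120 list (3.32), and likewise an upstream *Itgam* peak (6.23 and 4.3). The 2 windows then counted as lower were *Tal1* and *Itgam*. With lists of equal length they were *Cebpb* and *Mpo*. Within 500 bases of the start, 3 B lineage genes in wt and 2 in ΔIkE120 cells, and 6 other progenitor genes in wt and 5 in ΔIkE120 cells, had a peak. Of all 21532 genes, 9192 in wt and 9076 in ΔIkE120 cells had one at that distance. Within 2.5 kb, 3 members in wt cells (*Spi1*, *Lyl1* and *Mpo*) and 2 in ΔIkE120 cells (*Spi1* and *Lyl1*), 7 and 5 B lineage genes, and 7 and 5 other myeloid genes had one. Of all 21532 genes, 10216 in wt and 10023 in ΔIkE120 cells had one within 2.5 kb.

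Covered bases in wt and ΔIkE120 cells were 8813 and 5264 with a 10 kb flank, 30077 and 25733 with 50 kb, and 4450 and 3186 with no flank. Without peaks at starts of other genes they were 11444 and 7257. The ΔIkE120 to wt ratio of the members ran from 0.597 to 0.856. With a 50 kb flank 1 window was lower in ΔIkE120 cells, *Cebpb*, and with no flank 0, where *Mpo* still had bases in the wt list alone but under the minimum of 500. The progenitor to myeloid ratio, 1.02 in wt and 1.71 in ΔIkE120 cells, became 1.06 with a 10 kb flank and 0.977 with 50 kb in ΔIkE120 cells (0.687 and 0.728 in wt cells), and 0.457 in wt and 0.724 in ΔIkE120 cells without peaks at starts of other genes. An overlap of 50% of the peak, an alternative chosen after seeing the data, gave 15 shared wt peaks and 14 shared ΔIkE120 peaks.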
